A study of Mus musculus with 16 samples.

Results

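The 9 genes described here mark macrophages of the marrow and bone surface: Timd4, Cd163, Vsig4, Marco, Mrc1, Siglec1, Csf1r, Cd68 and Spic. They were taken by name from the array design, which carries 15 probes for them among 56605 non-control probes, and every probe with one of these gene names was kept. Spic encodes a transcription factor, so the group is wider than receptors. A probe was kept where 4 or more of the 16 arrays called it well above background. All 9 genes passed this filter, and they stand among 28250 genes or unnamed transcripts fitted.

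The study measured RNA of subchondral bone from male wild-type (WT) C57BL6 mice that were 10 to 12 weeks old at surgery. In the DMM groups the medial menisco-tibial ligament of both knees was cut, which destabilizes the medial meniscus and leads to osteoarthritis, and in the sham groups it was exposed and left whole. The mice were killed after 1 or 6 weeks, so that 4 arrays each stand for DMM and sham at 1 week and for DMM and sham at 6 weeks. Each array held the RNA of 1 joint of 1 mouse, cut by laser from 10 µm sections of the medial tibial plateau and pooled per joint. The groups share the strain, the genotype, the sex, the bilateral surgery and the opening and flushing of the joint, and no unoperated knee was analysed here. The dissected bone contains marrow, so every level below is an average over bone and marrow cells. In such bulk RNA, fewer macrophages and less RNA per macrophage cannot be told apart.

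Macrophages of the marrow engulf dying cells, expelled red cell nuclei and worn blood cells, and they break down haem and return its iron to red cell precursors. They recognise their targets through scavenger and lectin receptors at the cell surface, several of which are used as markers of resident macrophages. Osteoclasts arise from the same lineage and also make Csf1r and Cd68, and Mrc1 is also made by sinusoidal endothelium, so these 3 genes do not mark macrophages alone.

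Each array value is read from a probe of 60 bases, and 4 probes are printed because the results for their genes turn on whether, or how evenly, the probe sees its transcript. The Vsig4 probe crossed its detection limit between groups, and the Cd163 probe is the second of a pair that gave like differences. The Siglec1 probe is 1 of 3 that did not all move together, and the Cd68 probe is 1 of 3 that did. Each is given 5′ to 3′ as the array design lists it, in lower case throughout, since no base within a probe is compared with another. The probes lie at chrX:93443157-93443216 (Vsig4, minus strand), chr6:124270436-124270495 (Cd163, plus strand), chr2:130909693-130909752 (Siglec1, minus strand) and chr11:69478314-69478373 (Cd68, minus strand) on mm9, the build of the scanner files.
Vsig4, transcript base 757: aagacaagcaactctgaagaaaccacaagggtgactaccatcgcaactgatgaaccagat
Cd163, transcript base 2610: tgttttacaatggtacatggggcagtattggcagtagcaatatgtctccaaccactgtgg
Siglec1, transcript base 1417: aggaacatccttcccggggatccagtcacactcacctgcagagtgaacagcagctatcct
Cd68, transcript base 834: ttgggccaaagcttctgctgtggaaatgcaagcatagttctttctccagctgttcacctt

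Spic and its relative PU.1 are Ets-family factors whose binding sites hold the core GAGGAA. Spic and Mrc1 were among the most closely correlated members, and their promoters are shown over the 250 bases before the RefSeq start site (GRCm38.p6), with matches to GAGGAA on either strand in capitals. The Mrc1 stretch is chr2:14229164-14229413 on the plus strand, and that of Spic is chr10:88683024-88683273 on the minus strand.
Mrc1 promoter: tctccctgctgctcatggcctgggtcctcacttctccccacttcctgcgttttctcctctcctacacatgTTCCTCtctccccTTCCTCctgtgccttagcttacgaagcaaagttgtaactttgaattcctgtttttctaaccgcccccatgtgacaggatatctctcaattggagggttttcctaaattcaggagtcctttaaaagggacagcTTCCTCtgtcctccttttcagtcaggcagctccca
Spic promoter: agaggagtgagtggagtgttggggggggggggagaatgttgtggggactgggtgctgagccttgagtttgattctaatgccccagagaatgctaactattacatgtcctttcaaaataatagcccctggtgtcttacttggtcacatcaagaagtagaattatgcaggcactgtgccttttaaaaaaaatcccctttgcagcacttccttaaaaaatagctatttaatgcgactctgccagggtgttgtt
The Mrc1 stretch held 3 matches, which begin 180, 167 and 35 bases before the start site, and the Spic stretch held 0. Of the 7 members in the RefSeq promoter table, 4 (Vsig4, Marco, Mrc1 and Cd68) held at least 1 match, and so did 23.3% of all 32851 promoters in windows of the same length. A match count of 3 or more was found in 0.429% of them. These matches are a description of the letters and not of binding.

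Levels are log2 of the background-corrected intensity minus the 75th percentile of the array, so a value of 0 is the level of a probe at that percentile, and levels of different probes are not compared. The signal at the 75th percentile ran from 329 to 873 over the arrays, and the share of probes called above background from 65.1% to 79.5%. Array sham 6-week replicate 2 was the dimmest (329, next 471) and lay apart on the first principal component, at 176.5, where the others ran from -69.6 to 71.7. Array DMM 1-week replicate 2 had the lowest of 16 levels for 4 of the 9 members and lay below its own group mean for 8 of them. Both arrays lie on slide 1 of the 2 slides, each of which held 2 arrays of every group. All 9 genes of an osteoblast and osteocyte list and all 10 of an erythroid list were kept by the filter, which shows RNA of bone cells and of marrow cells. Results below that rest on either array are also given without both, a choice made after seeing the data.

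**Figure D1:**
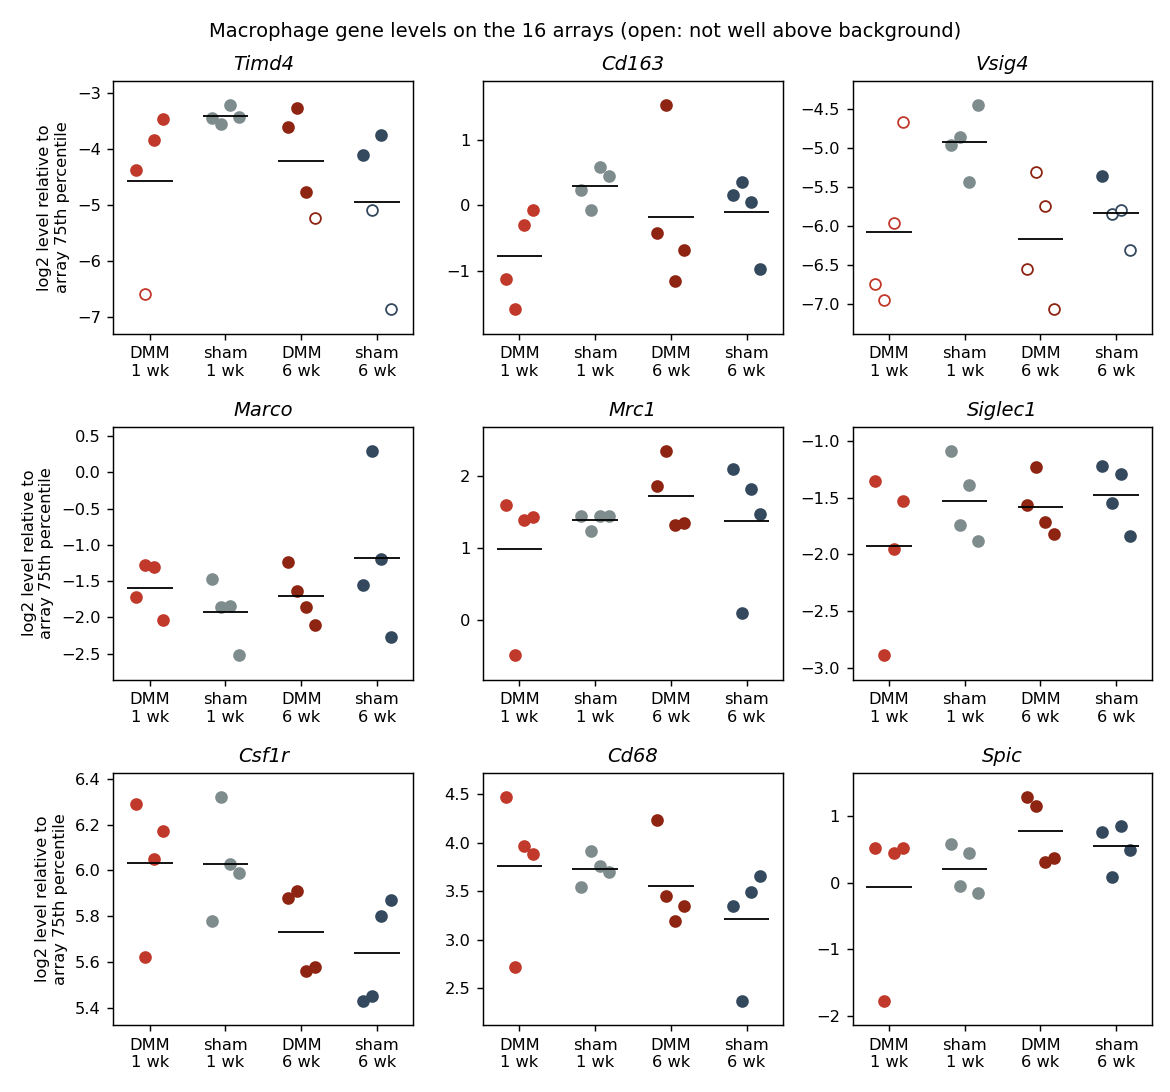
Levels of the 9 genes on all 16 arrays, in DMM and sham bone at 1 week and at 6 weeks. The y axis is log2 intensity minus the array's 75th percentile, each point is 1 array, lines are group means (n = 4) and open points are not well above background. Vsig4 was well above background on 0 of 4 DMM and 4 of 4 sham arrays at 1 week, and the lowest Mrc1 and Spic points belong to DMM 1-week replicate 2.

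The first comparison asks what meniscal destabilization did to the 9 genes within 1 week. Cd163, Vsig4 and Timd4 had the lowest mean differences, each near -1 on the log2 scale, while Csf1r and Cd68 stood near 0. In all, 2 members had higher and 6 lower means after DMM, with Csf1r at 0.00 (in these counts a difference that rounds to 0.00 is neither), and their median difference was -0.41, beside 0.00 over all genes. Limma called 0 of the 9 at an adjusted p under 0.05, as it did 0% of the 28250 genes. At an unadjusted p under 0.05 it listed 2 of the 9 (Cd163 and Vsig4) and 0.966% of all genes. Vsig4 passed the filter only through sham arrays, 4 of them at 1 week, so its place in this count is not a test. Without DMM 1-week replicate 2 and sham 6-week replicate 2, 5 members had higher and 4 lower means and the median was 0.09, so the lower direction of the group as a whole rests on DMM 1-week replicate 2.

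Cd163 is the receptor that clears haemoglobin bound to haptoglobin. Its probe at transcript base 4347 (chr6:124280484-124280543, plus strand) read -1.13, -1.59, -0.31 and -0.08 after DMM, against 0.23, -0.07, 0.58 and 0.44 after sham. All 4 DMM values lay below all 4 sham values, though the highest of DMM and the lowest of sham nearly touched. The mean was -0.78 ± 0.70 after DMM and 0.29 ± 0.28 after sham (SD, n = 4 each). The difference was -1.07 ± 0.49 (SE; 95% interval -2.12 to -0.02) with a limma adjusted p = 1.0 and an unadjusted p = 0.0469. Groups did not overlap in this direction for 0.726% of all genes, and Cd163 was the only member among them. The difference was -1.44 within slide 1 and -0.70 within slide 2. Without the 2 arrays that stand apart it was -0.80 ± 0.52, and the remaining values still did not overlap.

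The other Cd163 probe, at base 2610, gave a difference of -1.14 ± 0.54 (limma adjusted p = 1.0). It read -5.18, -5.68, -3.95 and -3.31 after DMM, against -3.45, -3.97, -2.98 and -3.17 after sham, and these values overlap. Over all 16 arrays the 2 Cd163 probes followed each other with r = 0.93 and rho = 0.84 (permutation adjusted p = 2e-05 and 2e-04 over 8 probe pairs), and r was 0.85 without the 2 arrays farthest from the median.

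Vsig4 is a complement receptor of the immunoglobulin family that binds fragments of C3. Its only probe read -6.74, -6.95, -5.96 and -4.66 after DMM, against -4.96, -4.85, -5.43 and -4.45 after sham. It was well above background on 0 of 4 DMM arrays and on 4 of 4 sham arrays, so the DMM level is a bound. With each dim array raised to the lowest signal counted as well above background on it, or to its own value where that was higher, Vsig4 was at least 1.37-fold lower after DMM. This bound sets the sham mean of -4.92 against a floor of -5.38, where the DMM mean as measured was -6.08, and it carries no sampling error. The measured values gave -1.15 ± 0.46, with -1.94 and -0.37 within the slides. Vsig4 met the filter through these same 4 sham arrays, so this comparison does not test it and no p is given. The groups overlap, since the highest DMM array lay above 3 of the 4 sham arrays. Without the 2 arrays that stand apart the difference was -0.86 ± 0.49.

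Timd4 is a receptor for phosphatidylserine, the lipid that dying cells and expelled nuclei expose. At 1 week its probe (chr11:46657173-46657232, plus strand) read -4.37, -6.59, -3.84 and -3.47 after DMM, against -3.45, -3.55, -3.22 and -3.42 after sham. Each DMM value lay below the sham mean, and DMM replicate 2, which was not well above background, lay far below the rest. The difference was -1.16 ± 0.70 (limma adjusted p = 1.0), and -1.98 and -0.33 within the slides. Without the 2 arrays that stand apart it was -0.48 ± 0.65.

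Mrc1, the mannose receptor, takes up glycoproteins with terminal mannose and collagen fragments. It read 1.60, -0.49, 1.39 and 1.43 after DMM at 1 week, against 1.44, 1.23, 1.44 and 1.44 after sham. Apart from DMM replicate 2, all arrays lay close together. The difference of -0.41 ± 0.46 (limma adjusted p = 1.0) became 0.09 ± 0.23 without the 2 arrays.

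Siglec1 (CD169), a lectin for sialic acid, marks the macrophages at the centre of erythroblastic islands. Its probe at base 6190 read -1.35, -2.89, -1.95 and -1.53 after DMM at 1 week, against -1.09, -1.74, -1.39 and -1.88 after sham, a difference of -0.41 ± 0.30 (limma adjusted p = 1.0) that was -0.09 ± 0.23 without the 2 arrays. The probes at bases 1417 and 5552 gave -0.25 ± 0.27 and -0.16 ± 0.21.

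Marco is a class A scavenger receptor that binds bacteria and particles. The DMM arrays read -1.72, -1.28, -1.31 and -2.04 and the sham arrays -1.47, -1.86, -1.84 and -2.52, with overlap. Its difference of 0.33 ± 0.42 (limma adjusted p = 1.0) was 0.17 and 0.50 within the slides. Leaving out 1 array moved it between 0.13 (without sham replicate 4) and 0.49 (without DMM replicate 4).

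Spic drives the programme of macrophages that recycle red cells and is induced by haem. At 1 week it read 0.53, -1.78, 0.45 and 0.52 after DMM, against 0.59, -0.05, 0.45 and -0.15 after sham. A difference of -0.28 ± 0.44 (limma adjusted p = 1.0) turned to 0.29 ± 0.26 without the 2 arrays, since 3 DMM arrays lay near the top of the sham range and 1 lay far below it.

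Csf1r is the receptor for the growth factors CSF1 and IL-34, on which macrophages and osteoclasts depend. The probe at base 3806 read 6.29, 5.62, 6.05 and 6.17 after DMM at 1 week, against 5.78, 6.32, 6.03 and 5.99 after sham. Its difference was 0.00 ± 0.19, and the 95% interval of -0.40 to 0.40 bounds a change either way. Cd68, a heavily glycosylated protein of lysosomes, gave 0.03 ± 0.35 (95% interval -0.72 to 0.79) at base 1127. Its DMM arrays read 4.47, 2.72, 3.97 and 3.88 and spanned the sham arrays at 3.54, 3.91, 3.76 and 3.70. DMM 1-week replicate 2 was again the lowest of its group for both genes, and without the 2 arrays Cd68 gave 0.38 ± 0.23.

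**Figure D2:**
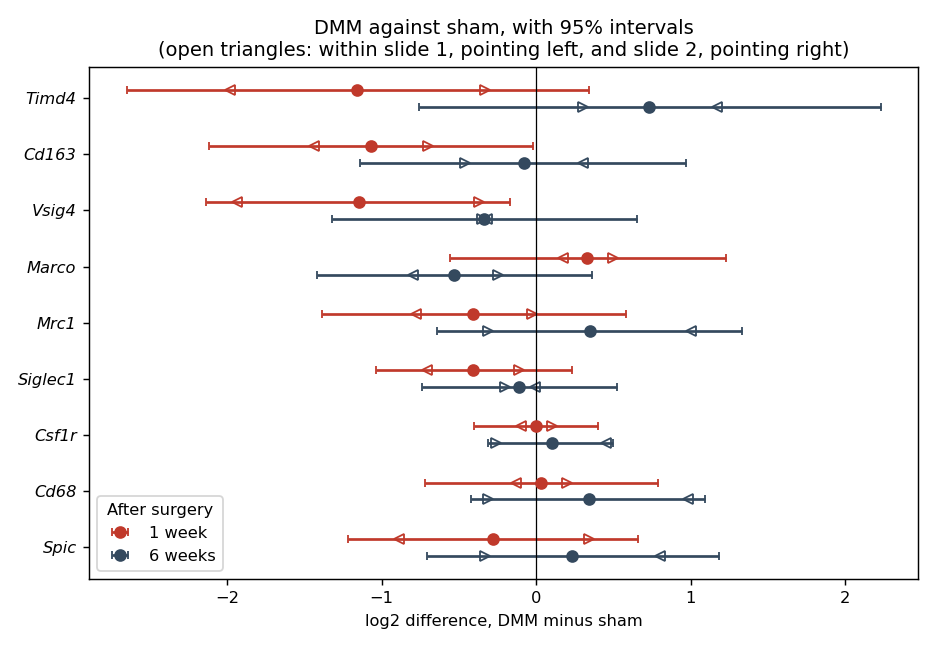
Log2 difference, DMM minus sham, for each of the 9 genes at 1 week (red) and at 6 weeks (blue). Points are limma estimates, bars 95% intervals and open triangles the difference within each slide. At 1 week the intervals of Cd163 (-2.12 to -0.02) and Vsig4 lie below 0, without passing after adjustment, and at 6 weeks every interval holds 0. Vsig4 passed the filter only through sham arrays, so its interval at 1 week is not a test.

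The same comparison was made at 6 weeks. After DMM 5 members had higher and 4 lower means than after sham, and the median difference was 0.10, beside -0.02 over all genes. Limma called 0 of the 9 and 0% of all genes, and 0 of the 9 had an unadjusted p under 0.05 (0.779% of all genes did). No member had groups without overlap, as 0.499% of all genes had.

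Cd163 read -0.42, 1.52, -1.16 and -0.69 after DMM at 6 weeks, against 0.15, 0.35, 0.05 and -0.97 after sham. DMM replicate 2 was the highest of all 16 arrays, while the other 3 DMM arrays lay below 3 of the 4 sham arrays. The difference was -0.08 ± 0.49 (limma adjusted p = 1.0), with 0.30 and -0.46 within the slides, and its other probe gave 0.26 ± 0.54. Without DMM replicate 2 of that group the difference was -0.65.

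Vsig4 was well above background on 0 of 4 DMM arrays and 1 of 4 sham arrays at 6 weeks, so no fold is given. Timd4 read -3.60, -3.27, -4.77 and -5.24 after DMM at 6 weeks, against -4.11, -5.10, -3.74 and -6.87 after sham, where 3 and 2 of the 4 arrays were well above background. The difference was 0.73 ± 0.70 (limma adjusted p = 1.0), and 1.17 and 0.30 within the slides. It was 0.10 without sham 6-week replicate 4, the array at -6.87, and 1.14 without sham 6-week replicate 3. The DMM effect on Timd4 at 6 weeks minus that at 1 week was 1.89 ± 0.99, the highest of the 9 (limma adjusted p = 1.0, unadjusted p = 0.0768), and 1.16 ± 0.91 without the 2 arrays. In this comparison limma called 0 of the 9 members and 0% of all genes, with 0 of 9 and 0.683% at an unadjusted p under 0.05.

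Marco read -1.24, -1.63, -1.85 and -2.11 after DMM at 6 weeks, against -1.55, 0.29, -1.19 and -2.27 after sham. The sham array at 0.29 is the dimmest array, and it was the highest of all 16. The difference of -0.53 ± 0.42 (limma adjusted p = 1.0) was -0.04 ± 0.31 without the 2 arrays. Mrc1 read 1.86, 2.34, 1.32 and 1.35 after DMM, against 2.09, 0.10, 1.81 and 1.47 after sham, where the same dim array was the lowest. Its difference was 0.35 ± 0.46, and -0.07 ± 0.23 without the 2 arrays.

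The remaining members had overlapping groups at 6 weeks. Spic read 1.29, 1.15, 0.31 and 0.38 after DMM, against 0.76, 0.09, 0.85 and 0.50 after sham (0.23 ± 0.44). The differences were -0.11 ± 0.30 for Siglec1, 0.10 ± 0.19 for Csf1r and 0.34 ± 0.35 for Cd68, and each changed sign between the slides except Siglec1 (-0.01 and -0.20). Cd68 gave 0.06 ± 0.23 without the 2 arrays. Averaged over both times, the DMM effect was called for 0 of the 9 members and 0% of all genes. An unadjusted p under 0.05 was listed there for 1 of the 9 and for 0.938% of all genes. The 1 member was Vsig4, which was well above background on no DMM array at either time, so its pooled difference is not given.

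Time after surgery was compared within each operation and over both. After DMM, 5 members had higher and 4 lower means at 6 weeks than at 1 week, with 0 of 9 called against 0% of all genes. At an unadjusted p under 0.05 the counts were 0 of 9 and 9.70% of all genes. Spic had the highest difference, 0.85 ± 0.44 (limma adjusted p = 0.585), with all 4 values at 6 weeks above the mean at 1 week. That mean includes DMM 1-week replicate 2, and without the 2 arrays the difference was 0.28 ± 0.26. Mrc1 was alike, at 0.73 ± 0.46 with all arrays and 0.24 ± 0.23 without the 2.

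After sham surgery, 3 members had higher and 6 lower means at 6 weeks than at 1 week, and the median was -0.39, beside 0.04 over all genes. With the 2 arrays that stand apart left out 4 were higher and 5 lower, with a median of -0.23 beside -0.04. Limma called 0 of 9 and 0% of all genes, with 1 of 9 and 7.15% at an unadjusted p under 0.05. Timd4 was that 1 gene: its 4 sham values at 6 weeks (-3.74 and below) lay under all 4 at 1 week (-3.55 and above), by -1.54 ± 0.70 (limma adjusted p = 0.689, unadjusted p = 0.0444). Groups without overlap in this direction made up 3.15% of all genes. The difference was -1.10 and -1.98 within the slides, and 2 of the 4 arrays at 6 weeks were not well above background. Without sham 6-week replicate 4 it was -0.90, and without the 2 arrays that stand apart -1.49 ± 0.65 (limma adjusted p = 0.30).

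Over both operations limma called 0.874% of all genes but 0 of the 9 members, of which 5 had higher and 4 lower means at 6 weeks, and at an unadjusted p under 0.05 it listed 1 of 9 and 15.8% of all genes. Csf1r came nearest. Its levels at 6 weeks were 5.88, 5.91, 5.56 and 5.58 after DMM and 5.43, 5.45, 5.80 and 5.87 after sham, and those at 1 week are given above. The difference was -0.34 ± 0.13 (95% interval -0.63 to -0.06, limma adjusted p = 0.210, unadjusted p = 0.0207), it was -0.34 and -0.35 within the slides, and it was -0.38 ± 0.12 (adjusted p = 0.0766) without the 2 arrays. The Csf1r probe at base 1841 gave 0.08 ± 0.22 and read 3.18 on the dimmest array, where the other 15 values lay between 1.30 and 2.03. The 2 Csf1r probes had r = -0.36 over 16 arrays and 0.02 without the dimmest, so the 2 do not report the same pattern.

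Cd68 gave -0.36 ± 0.25 over time (limma adjusted p = 0.561), and its 3 probes followed each other with r of 0.98 to 0.99. Osteoclast markers were examined beside Csf1r and Cd68, which were not called: 9 of 10 had lower means at 6 weeks, with a median of -0.63 beside 0.04 over all genes, and 1 passed. That 1, Mmp9, a gelatinase of osteoclasts and neutrophils, stood at -0.80 ± 0.12 (limma adjusted p = 0.0347). Without the 2 arrays that stand apart 9 of the 10 were lower (median -0.74) and 6 passed. In that fit 1326 of all 28250 genes passed. The mean of the osteoclast list lay between 2.07 and 2.62 after DMM and between 1.88 and 2.82 after sham at 6 weeks. At 1 week it lay between 2.32 and 3.53 after DMM and between 2.77 and 3.42 after sham. Over arrays, with group means subtracted, the osteoclast list gave r = 0.52 with Csf1r and 0.37 with Cd68 (permutation adjusted p = 0.144 and 0.323). The part of osteoclasts in the Csf1r and Cd68 levels was not tested. On the same comparison Spic stood at 0.59 ± 0.31 (limma adjusted p = 0.387) and Timd4 at -0.60 ± 0.50, and Timd4 gave 0.47 and -1.67 within the slides.

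Other genes of macrophage function were counted from lists of receptors, regulators and recycling enzymes. Of 10 further scavenger receptors, 4 were higher and 6 lower after DMM at 1 week and 6 were higher and 4 lower at 6 weeks, with 0 past the threshold. The split at 6 weeks turned without the 2 arrays to 2 higher and 7 lower, with a median of -0.15 in place of 0.07. Cd5l, a secreted scavenger protein of macrophages, stood at -1.04 ± 0.66 at 1 week, and the lectin Olr1 at -0.50 ± 0.31. Of 12 genes of haem and iron recycling, 10 had lower means after DMM at 1 week (median -0.17) and 8 had higher means at 6 weeks (median 0.11), with 0 past the threshold. Slc40a1, the iron exporter ferroportin, stood at -0.35 ± 0.24 at 1 week and Slc11a1, an iron transporter of phagosomes, at -0.34 ± 0.24. Without the 2 arrays 6 of the 12 were higher and 6 lower at 1 week. Of 21 measured general macrophage and monocyte genes, 18 had lower means after DMM at 1 week and 20 higher means at 6 weeks, again with 0 past the threshold, and without the 2 arrays these counts were 8 lower and 12 higher.

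Over time, with both operations pooled, 2 genes of these lists passed the threshold. Slc48a1, which carries haem out of the phagolysosome, was higher at 6 weeks (0.50 ± 0.10, limma adjusted p = 0.0396), and Klf4, a transcription factor of monocytes, was lower (-0.81 ± 0.16, adjusted p = 0.0390). The CSF1 and transcription factor list was lower in 9 of 10 (median -0.32). Of the 12 recycling genes, 8 had higher and 4 lower means at 6 weeks (median 0.19), and only Slc48a1 passed. All 10 erythroid genes had higher means at 6 weeks (median 1.21), and Alas2, the first enzyme of haem synthesis in red cell precursors, passed (1.30 ± 0.27, limma adjusted p = 0.0434). The mean of the erythroid list lay between 4.56 and 5.37 after DMM and between 3.1 and 5.03 after sham at 6 weeks. At 1 week it lay between 2.32 and 4.60 after DMM and between 2.88 and 4.29 after sham. The part of red cell content in the Slc48a1 and Spic levels was not tested. Markers of other cells that passed were Zbtb46 of dendritic cells (0.95 ± 0.17, adjusted p = 0.0347) and Ms4a1 of B cells (1.35 ± 0.30, adjusted p = 0.0490), both higher at 6 weeks. Of 7 measured dendritic cell genes, Zbtb46 among them, 4 were higher, 2 lower and 1 at 0.00 (median 0.08). Without the 2 arrays that stand apart, 3 were higher and 4 lower (median -0.03), so Zbtb46 does not stand for its list. All 9 B cell genes were higher (median 0.85). The calls of Slc48a1, Klf4, Alas2, Zbtb46, Ms4a1 and Mmp9 ended with the array median subtracted (limma adjusted p from 0.0537 to 0.0968). They also ended with no filter on dim probes (0.0556 to 0.0758), with like differences. When 1 array was left out they were called in 4 of 16 fits (Ms4a1 in 3), and all 6 were called without both arrays that stand apart. That last fit called 1326 of 28250 genes and 0 of the 9 members. From the lists it called 9 of 10 erythroid, 6 of 10 osteoclast and 4 of 9 B cell genes. It also called 2 of 12 recycling genes and 2 of 10 of the CSF1 and transcription factor list.

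Marker lists of other cells were counted for DMM against sham at 1 week, beside Cd163 and Vsig4. All 9 B cell genes had higher means after DMM (median 0.25), as did 8 of 9 osteoblast and osteocyte genes (median 0.36), while 8 of 10 neutrophil genes had lower means (median -0.19). None of these genes passed the threshold in limma. The medians without the 2 arrays that stand apart were 0.45 for the 9 B cell genes (9 higher) and 0.54 for the osteoblast and osteocyte genes (8 higher), and all 10 neutrophil genes had lower means (median -0.37). Erythroid genes, 5 higher and 5 lower with all arrays (median -0.01), were then 9 higher and 1 lower (median 0.46). Neutrophil list means lay between 6.35 and 7.52 after DMM and between 7.07 and 7.26 after sham. Osteoblast and osteocyte means lay between 3.44 and 4.62 after DMM and between 3.42 and 4.06 after sham, and B cell means between 0.46 and 1.95 after DMM and between 0.18 and 1.37 after sham. Their part in the Cd163 and Vsig4 values was not tested.

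How far the 9 genes moved together from mouse to mouse was measured over the 16 arrays after each group's mean was subtracted. Of 36 pairs, 31 had a positive correlation, with a median r of 0.42 (range -0.48 to 0.88), and the median was 0.48 and 0.52 within the slides. Adjusted over the 36 pairs, 14 passed a permutation p of 0.05 by Pearson's r and 10 by both r and Spearman's rho, all of them positive. Vsig4 pairs are in these counts, though Vsig4 was well above background on 5 of 16 arrays. Those with Timd4 and Cd163 are among the 14, and none is among the 10. The permutations moved values freely over all 16 arrays, although subtraction of group means leaves 12 degrees of freedom. Their p, here and for the lists below, may therefore be too small. The share of pairs of other genes that would pass was not computed, so these counts do not set the members apart from other genes. Without subtraction of group means 29 pairs were positive and 6 passed by both, among them Vsig4 with Timd4 and with Cd163. Without the 2 arrays that stand apart the median r was 0.39 with group means subtracted and 0.21 without subtraction. Wherever arrays are left out of a correlation or a slide is taken alone, the subtracted group means are still those of all 16 arrays. The influence of arrays left out is therefore not fully removed.

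Siglec1 and Spic had the highest correlation (r = 0.88, rho = 0.79, permutation adjusted p = 0.00108 and 0.00696). It was 0.94 and 0.78 within the slides and 0.74 without the 2 arrays farthest from the median of the first-named gene. For pairs of members these are called the 2 farthest arrays below. Siglec1 here is its probe at base 6190, with which the probes at bases 1417 and 5552 had r = 0.59 and -0.22. The relation of those other probes to Spic was not tested. Mrc1 and Spic followed (r = 0.86, rho = 0.79, adjusted p = 0.00108 and 0.00696), with 0.87 and 0.89 within slides and 0.77 without the 2 farthest arrays.

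Timd4 correlated with Spic (r = 0.76), Siglec1 (r = 0.76), Cd163 (r = 0.73) and Mrc1 (r = 0.68), with adjusted p between 0.00288 and 0.0185 by either measure. Without the 2 farthest arrays these were 0.75, 0.55, 0.65 and 0.70. With no subtraction of group means and without both arrays that stand apart, they were 0.11, 0.42, 0.68 and 0.22. Timd4 was well above background on 12 of 16 arrays. Its values on sham 6-week replicate 4 and DMM 1-week replicate 2, the lowest of all, were not. Cd163 and Vsig4 gave r = 0.62 and rho = 0.56 (adjusted p = 0.0266 and 0.0796), which passed by r only. Cd163 had r = 0.03 with Cd68 and 0.21 with Csf1r.

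Csf1r and Cd68 correlated with each other (r = 0.79, rho = 0.75, permutation adjusted p = 0.00120 and 0.00785), at 0.76 and 0.94 within slides and 0.74 without the 2 farthest arrays. Csf1r here is its probe at base 3806, with which the probe at base 1841 had r = -0.36 (0.02 without the dimmest array). Mrc1 and Cd68 (r = 0.82) and Cd68 and Spic (r = 0.78) also passed by both measures, but r was 0.46 and 0.54 without the 2 farthest arrays. With no subtraction of group means, r without the 2 farthest arrays was -0.12 and 0.06. These 2 relations therefore rest largely on those arrays. Marco had 0 of its 8 pairs past the threshold and a median r of -0.11 (range -0.48 to 0.24). These values depend on the arrays that stand apart: without both, the median was 0.16 (range -0.10 to 0.53), with 0.53 for Timd4 and 0.43 for both Siglec1 and Spic, and the median was -0.27 within slide 1 and 0.28 within slide 2. Its lowest correlation, -0.48 with Mrc1, was 0.05 without both arrays, and -0.71 and 0.18 within the slides.

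**Figure D3:**
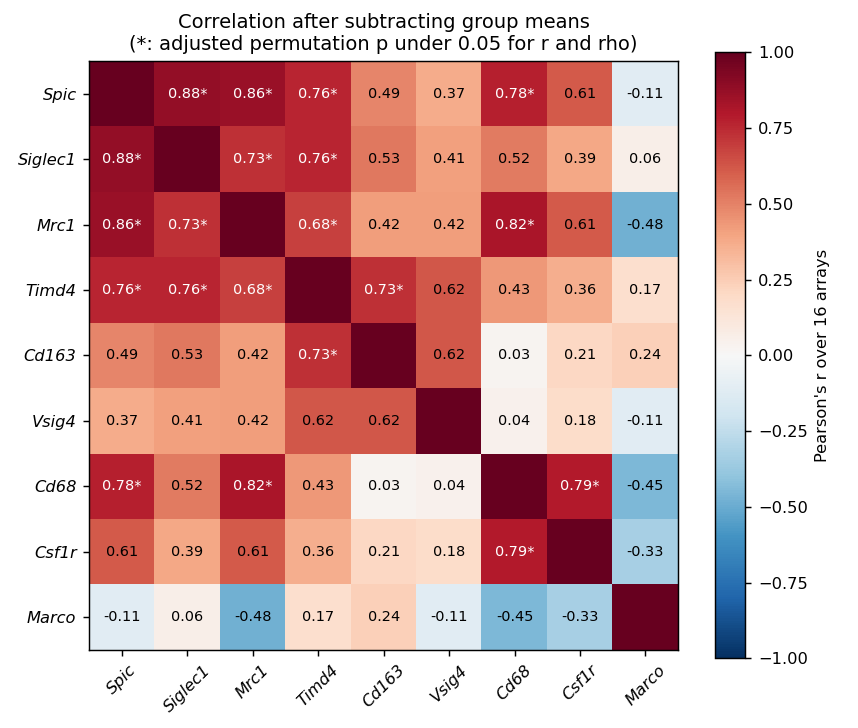
Pearson's r between the 9 genes over 16 arrays, after the mean of each group was subtracted. Siglec1 is shown by its probe at base 6190 and Csf1r by that at base 3806. Both axes list the genes, the colour scale runs from -1 to 1, and stars mark the 10 pairs past the threshold by r and rho. Spic, Siglec1, Mrc1 and Timd4 form a positive block (0.68 to 0.88), and the Marco row runs from -0.48 to 0.24.

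Members were also set against the mean levels of 12 gene lists, again with group means subtracted, which gave 108 relations. In all list relations the 2 farthest arrays are those farthest from the median of the list mean. By both r and rho 10 passed, all positive: 3 each with the recycling list and the other scavenger receptors, 2 with the general macrophage list and 1 each with the erythroid and dendritic cell lists. Mrc1 was as close to the other scavenger receptors (r = 0.91, permutation adjusted p = 9e-04) and to the general macrophage list (r = 0.89, adjusted p = 6.48e-04) as to the recycling list, though these were 0.71 and 0.74 without the 2 farthest arrays. Mrc1 and the recycling list gave r = 0.89 and rho = 0.86 (permutation adjusted p = 3.6e-04 and 0.00486), and Spic and the same list gave r = 0.83 and rho = 0.77 (adjusted p = 5.4e-04 and 0.0103). Both were 0.81 without the 2 farthest arrays, and within slides they were 0.94 and 0.89 for Mrc1 and 0.83 and 0.87 for Spic. The recycling list holds Vcam1, which is also among the genes most like Spic.

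Lists of other cells correlated with these members as well. Spic and the dendritic cell list gave r = 0.90 and rho = 0.75 (permutation adjusted p = 3.6e-04 and 0.0143), 0.95 and 0.88 within the slides and 0.80 without the 2 farthest arrays. In that list Xcr1 was well above background on 0 arrays. With the erythroid list Cd68 passed by both measures (r = 0.75, rho = 0.71, permutation adjusted p = 0.012 and 0.0301), but r was 0.35 without the 2 farthest arrays. Mrc1 (r = 0.83) and Spic (r = 0.74) passed by r only (permutation adjusted p = 0.0798 and 0.137 by rho). Their r was 0.48 and 0.50 without the 2 farthest arrays. For Siglec1 the neutrophil list gave r = -0.67 (rho = -0.44, adjusted p = 0.0429 and 0.340), which was -0.17 without the 2 farthest arrays. What these shared movements owe to the makeup of the dissected tissue was not tested.

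**Figure D4:**
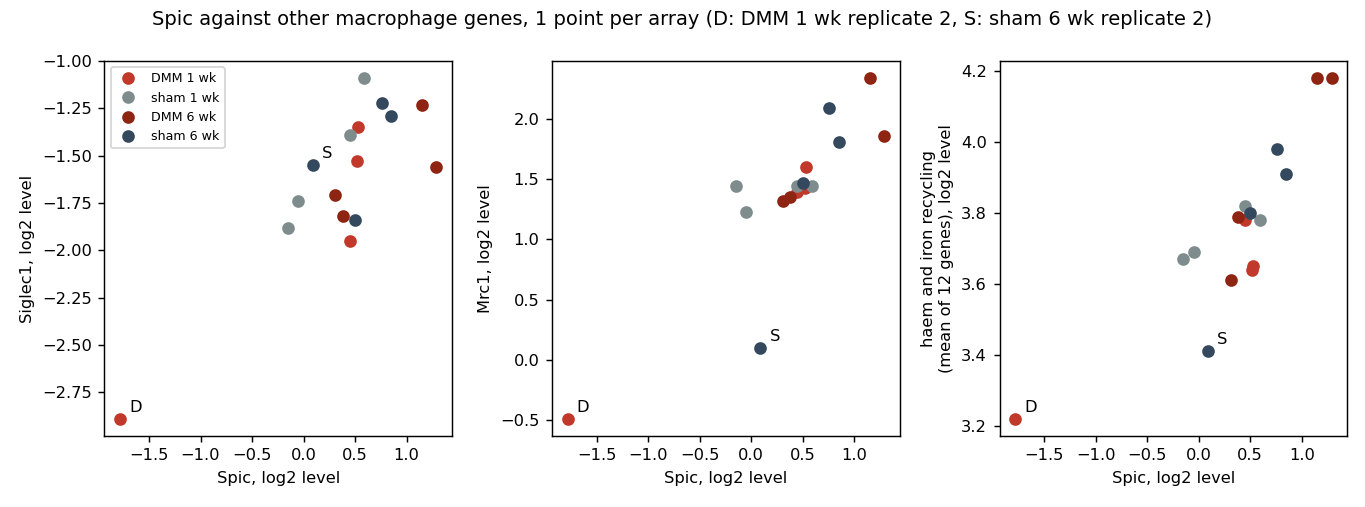
Spic level (x axis) against Siglec1, Mrc1 and the mean of 12 haem and iron recycling genes (y axes), all as log2 intensity minus the array's 75th percentile. Each point is 1 array, coloured by group, with D for DMM 1-week replicate 2 and S for sham 6-week replicate 2. DMM 1-week replicate 2 is the lowest point in all 3 panels. Without both marked arrays r after subtraction of group means was 0.79, 0.77 and 0.81, where those means still included both arrays. Siglec1 is shown by its probe at base 6190.

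The genes whose levels were most like each member over the 16 arrays, among 19745 genes with a current symbol, were taken 3 per member by Pearson's r as a description. Nearest to Spic were C1qc (r = 0.95), a subunit of complement C1q, Vcam1 (0.95), an adhesion molecule of island macrophages, and Fcna (0.94), a ficolin. Their r was 0.96, 0.97 and 0.96 without the dimmest array. For these nearest genes no r was computed without DMM 1-week replicate 2, the lowest array for Spic, Mrc1, Cd163 and Siglec1. Nearest to Mrc1 were Gpr34 (0.98), Cmbl (0.96) and Gm5547 (0.96), and nearest to Cd68 were Npc2 (0.96), which carries cholesterol in lysosomes, Slc30a1 (0.94), a zinc exporter, and Cryzl2 (0.93). Cd163 had Pdzk1 (0.92), the lectin Cd209f (0.87) and the chemokine receptor Ccr3 (0.84) as its nearest genes.

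Siglec1 was nearest to Slc9a9 (0.92), the potassium channel Kcnj10 (0.91) and the nuclear receptor Pparg (0.86). Csf1r was nearest to Tmem35b (0.92), the proton pump subunit Atp6v1a (0.92) and the lysosomal peptidase Dpp7 (0.90). Timd4 was nearest to Akr1b7 (0.85), the costimulatory molecule Cd86 (0.85) and AU019990 (0.79), and Vsig4 to Calhm2 (0.84), Prr5l (0.75) and Crybg1 (0.74). Marco was nearest to Shmt1 (0.90), Fam184b (0.89) and Extl1 (0.89), and these 3 values were 0.69, 0.71 and 0.68 without the dimmest array.

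The 3 Siglec1 probes did not report 1 pattern. Those at bases 1417 and 6190 had r = 0.59 and rho = 0.76 (permutation adjusted p = 0.0218 and 0.00150), and r was also 0.59 without the 2 farthest arrays. The probe at base 5552, which the array design ties to another transcript record, had r = -0.22 with the one at 6190 and 0.44 with the one at 1417 (adjusted p = 0.391 and 0.118). Levels of Siglec1 in the text are those of the probe at base 6190, which had the highest mean.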

How the data were processed

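The deposited scanner files hold a background-corrected intensity per spot (gProcessedSignal) from Agilent Feature Extraction 10.7.3.1, per the file headers, and 14.3% of spot values are surrogates for signals near background. The authors' deposited table of 50815 probes was read as log2. Per the submitters' processing notes limma 3.20.9 was used; background correction and scaling of that table: not given in the sources used here. Here, outlier spots were left out, spots of a probe averaged, log2 taken and the 75th percentile of each array subtracted. Probes well above background on at least 4 of 16 arrays were kept (43268), and a gene's brightest probe by mean represented it, for 28250 genes. Limma 3.58.1 (lmFit, contrasts.fit, eBayes) fitted 4 group means to all 16 arrays, with 12 residual and 3.01 prior degrees of freedom, and 2-sided p-values were adjusted by Benjamini-Hochberg over all genes (threshold 0.05). The fit was tested on simulated data.

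Vsig4 was bounded as described with its value. Correlations used 100000 permutations. Genes most alike were the 3 with the highest r, from lists up to 4 genes past the threshold were named in each comparison, and otherwise those with the smallest unadjusted p, 2 at most. The members and lists were chosen with earlier results of these data known. Replicate numbers follow record order and only name arrays, 1 mouse each. The number of arrays limits the precision, and a log2 difference between 2 groups had a median standard error of 0.30. Alternatives were normexp (offset 50) with quantile normalization, the array median, the authors' table, no filter or one of 8 arrays, slide as a block, array weights, only the groups compared, other probes and leaving out arrays. Promoters came from RefSeq. No probe of Csf1r is printed, and the position of probes within genes was not analysed here. Software was R 4.3.3 with jsonlite 2.0.0 and data.table (version 1.17.8), and matplotlib 3.10.9 under Python 3.11.15.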

Additional observations from a re-analysis of the deposited data

Results flagged for a closer look

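Within each group of 4 arrays, the highest or lowest value of a member was compared with its nearest neighbour as a share of the group's range. In 3 of the 36 groups examined the gap was above the 95% critical value, where chance alone gives about 1 in 20 (5%). Mrc1 on DMM 1-week replicate 2 was at -0.49, with the other 3 arrays between 1.39 and 1.60. Spic on the same array was at -1.78, with the others between 0.45 and 0.53. Mrc1 on sham 1-week replicate 2 was at 1.23, where the other 3 all read 1.44.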

How the results depend on the processing

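No paired analysis was possible because nothing in the labels ties a DMM mouse to a sham mouse, and the replicate numbers only name arrays. Apart from array weights, no setting took a member past the threshold. With array weights 2 member values passed: Vsig4 (-1.01, adjusted p = 0.0246) and Csf1r (-0.37, adjusted p = 0.0113) at 6 weeks against 1 week over both surgeries. Vsig4 was well above background on 5 of 16 arrays, 0 of them DMM and 4 of them sham at 1 week. It passed the filter through that group, so its call over time is not a test. These weights ran from 0.08 (sham 6-week replicate 2) to 9.12 (sham 6-week replicate 3). They gave 1 call among all genes for DMM against sham at 6 weeks, 2 for the difference of the effects, 963 for 6 weeks against 1 week after DMM, 3305 after sham and 5884 over both. For the last comparison (247 calls), normexp gave 441, slide as a block 645, and the array median and no filter 0 each. Leaving out 1 array gave 0 to 1502 there, the most without sham 6-week replicate 2, and 1326 without both arrays that stand apart. It gave 0 to 1 calls at 6 weeks, 0 to 27 after DMM and 0 to 1 after sham.

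Signs of uncalled member values turned as follows, with causes not tested. Array weights gave, for DMM against sham at 1 week, Spic 0.17, and at 6 weeks Timd4 -0.58, Mrc1 -0.24, Csf1r -0.10 and Spic -0.19. For the difference of effects they gave Timd4 -0.19, Vsig4 -0.44, Mrc1 -0.21, Siglec1 -0.20, Csf1r -0.17, Cd68 -0.15 and Spic -0.35, and over both times Csf1r -0.02. Over time they gave Timd4 -0.83, Cd163 -0.17 and Siglec1 -0.01 after DMM, Mrc1 0.41 after sham and Cd163 -0.25 over both. The authors' table gave Csf1r -0.06 at 6 weeks and -0.07 over both times, Vsig4 0.09 over time after DMM, and Mrc1 0.07 and Siglec1 -0.04 over time after sham, where normexp gave Siglec1 -0.01. Other probes gave Cd68 -0.02 at 1 week, Cd163 0.26 and Csf1r -0.28 at 6 weeks, Siglec1 -0.01 and -0.03 and Csf1r -0.25 for the difference, Csf1r -0.16 over both times, and Csf1r 0.21 over time after sham and 0.08 over both.

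Leaving out arrays gave these ranges. At 1 week they were Marco 0.13 to 0.49, Siglec1 -0.60 to -0.09, Mrc1 -0.61 to 0.09, Cd68 -0.20 to 0.38 and Spic -0.48 to 0.29, and at 6 weeks Timd4 0.10 to 1.14, Marco -0.89 to -0.04, Siglec1 -0.23 to -0.02, Csf1r 0.03 to 0.17, Spic 0.07 to 0.39, Cd163 -0.65 to 0.24 and Mrc1 -0.07 to 0.59. For the difference they were Mrc1 -0.16 to 1.00, Siglec1 -0.05 to 0.49, Csf1r -0.10 to 0.18, Cd68 -0.32 to 0.54 and Spic -0.21 to 0.71. Over both times they were Timd4 -0.53 to 0.13, Marco -0.28 to 0.15, Mrc1 -0.24 to 0.22 and Spic -0.12 to 0.26. Over time after DMM they were Timd4 -0.33 to 0.71, Vsig4 -0.38 to 0.38, Marco -0.27 to 0.02 and Cd68 -0.55 to 0.03. After sham they were Timd4 -1.95 to -0.90, Marco 0.26 to 1.11, Mrc1 -0.26 to 0.40 and Siglec1 -0.07 to 0.20, and over both surgeries Cd163 -0.19 to 0.26. A filter of 8 arrays leaves Vsig4 out. Dim signal limits Vsig4 and Timd4, which were well above background on 5 and 12 of 16 arrays.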
